A study of Mus musculus with 2 samples.

Results

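The genes described here are 9 secreted factors of the transforming growth factor beta (TGF-beta) superfamily and its regulation. They are the activin subunit genes Inhba and Inhbb, the activin antagonist Fst (follistatin), the TGF-beta ligands Tgfb1, Tgfb2 and Tgfb3, and the bone morphogenetic protein (BMP) genes Bmp2, Bmp4 and Bmp7. They were selected by gene symbol, and all 9 were found among the 32285 genes listed for both libraries. Single-cell RNA sequencing had been run on dissociated prostate of wild-type male C57BL6 mice with no treatment named. One library came from the ventral lobes, and the other from the proximal prostate with the region around the urethra. Version 2 of the 10x Genomics kit for 3' ends served for the ventral and version 3 for the proximal tissue, so that tissue region cannot be told apart from kit version. The age of the mice and the number pooled per library were not given in the sources used here, and with 1 library per group no difference has a replicate check.

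Ligands of this superfamily are dimers that bind pairs of type I and type II serine/threonine kinase receptors. TGF-beta and activin receptors act mainly through Smad2 and Smad3, BMP receptors through Smad1, Smad5 and Smad9, and both share Smad4. TGF-beta is secreted in a latent complex with Ltbp proteins and is released by integrins, thrombospondin or proteases, while follistatin, noggin and chordin bind activins or BMPs outside the cell. In the prostate, TGF-beta restrains epithelial growth, activin and follistatin act during the branching of the gland, and Bmp4 and Bmp7 limit budding of the epithelium.

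The analysis rests on 1988 cells of the ventral library (median 25758.5 UMIs per cell) and 3705 of the proximal library (median 15260), which share no barcode. UMIs are unique molecular identifiers, which count captured RNA molecules. Cells were clustered within each library without the 9 genes and their pathway, and clusters were named from marker genes. The ventral library held 1450 distal luminal-like, 92 proximal luminal-like, 141 basal-like, 30 macrophage-like and 24 T or NK-like cells, and 251 cells of an unnamed cluster led by Cxcl10. Of the 92 cells, 49 formed a Saa1-led cluster that held far more UMIs of distal than of proximal luminal markers, so this name is loose. The proximal library held 904 proximal luminal-like, 692 distal luminal-like, 678 basal-like, 249 periurethral-like, 523 fibroblast-like, 61 endothelial-like, 79 macrophage-like, 27 T or NK-like and 26 seminal vesicle epithelium-like cells, and 466 cells of an unnamed cluster led by hemoglobin genes. No fibroblast-like or endothelial-like cluster was found in the ventral library and no smooth muscle-like or pericyte-like cluster in either with at most 10% mitochondrial UMIs per cell, so stromal levels rest on proximal cells. Allowing up to 20% gave a smooth muscle-like cluster of 9 cells in the proximal library. Levels are UMIs per 1000000 UMIs of a class (CPM), summed over its cells, with exact 95% Poisson intervals that cover counting error only, since cells are not replicates.

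The 9 genes lie at separate places in the mouse genome. On GRCm38 with the GENCODE vM21 annotation, Inhba spans chr13:16011851-16031621 on the plus strand with 5 exons, Inhbb chr1:119415465-119422248 on the minus strand with 2, and Fst chr13:114452290-114458951 on the minus strand with 6. Tgfb1 spans chr7:25687002-25705077 on the plus strand, Tgfb2 chr1:186622792-186705989 and Tgfb3 chr12:86056745-86079041 on the minus strand, each with 7 exons. Bmp2 spans chr2:133552159-133562885 on the plus strand with 3 exons, Bmp4 chr14:46383520-46390669 on the minus strand with 4, and Bmp7 chr2:172868012-172940321 on the minus strand with 7. Inhba, Fst, Tgfb2, Tgfb3 and Bmp4 overlap genes annotated on the opposite strand, and the strand setting of the counting is not given in the sources used here.

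The 250 bases before the annotated start were available from RefSeq (GRCm38.p6) for 5 of the 9 genes. They are shown for Bmp4 and Tgfb2, whose highest levels were both in fibroblast-like cells, and for Inhba, whose levels in fibroblast-like and 2 epithelial classes could not be told apart. Sequences run 5′ to 3′ on the strand of the gene, and capitals mark matches to CACGTG (an E-box), GGGCGG (a GC box) or the TATA box, TATAAA. The windows are chr14:46390670-46390919 on the minus strand for Bmp4, chr1:186705990-186706239 on the minus strand for Tgfb2 and chr13:16011601-16011850 on the plus strand for Inhba.
Bmp4: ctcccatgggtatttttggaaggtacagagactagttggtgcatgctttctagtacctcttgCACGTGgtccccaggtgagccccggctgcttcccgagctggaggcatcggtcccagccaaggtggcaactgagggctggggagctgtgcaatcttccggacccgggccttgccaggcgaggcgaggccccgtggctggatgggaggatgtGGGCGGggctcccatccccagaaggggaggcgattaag
Tgfb2: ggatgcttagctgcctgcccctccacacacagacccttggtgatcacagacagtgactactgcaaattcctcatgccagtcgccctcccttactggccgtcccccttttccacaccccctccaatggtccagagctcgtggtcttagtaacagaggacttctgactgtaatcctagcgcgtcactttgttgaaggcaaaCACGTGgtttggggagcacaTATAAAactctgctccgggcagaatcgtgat
Inhba: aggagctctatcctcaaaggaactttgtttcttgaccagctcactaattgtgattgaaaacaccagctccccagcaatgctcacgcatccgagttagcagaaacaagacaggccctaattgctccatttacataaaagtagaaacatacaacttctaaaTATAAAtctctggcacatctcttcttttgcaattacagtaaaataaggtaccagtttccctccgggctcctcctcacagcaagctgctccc
The E-box began at -188 in the Bmp4 window and at -51 in the Tgfb2 window, counted from the start site, and a match to it on either strand occurred in 6.02% of all 32851 promoters of the table. TATAAA began at -31 before Tgfb2 and at -91 before Inhba and occurred in 12.4% of promoters, and the GC box at -38 before Bmp4 in 32.7%. The Inhba window was 43.2% G or C, the Tgfb2 window 53.6% and the Bmp4 window 63.2%, beside a median of 52.4%. The windows of Inhbb (68.0% G or C) and Tgfb1 (75.2%) held 1 and 5 GC boxes. None of the 5 windows matched TGANTCA, an AP-1 motif that 6.75% of promoters held.

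Fibroblast-like cells had the highest level of 7 of the 9 genes in the proximal library. For Inhbb, Fst, Tgfb2, Tgfb3, Bmp2 and Bmp4 the interval lay apart from that of the next class. For Inhbb it still overlapped the exact intervals of T or NK-like, endothelial-like and macrophage-like cells, which held few or no Inhbb UMIs. For Bmp7 it overlapped that of distal luminal-like cells. The exceptions were Tgfb1, which was highest in macrophage-like, endothelial-like and T or NK-like cells, and Inhba, whose intervals overlapped among periurethral-like, basal-like, fibroblast-like and macrophage-like cells. Among the epithelial classes, Bmp2 was higher in proximal luminal-like, basal-like and periurethral-like cells than in distal luminal-like cells, and Bmp7 was higher in distal luminal-like and basal-like cells than in the proximal luminal-like and periurethral-like ones. The plot of levels by class shows these proximal levels, and the ventral levels for the classes found there.

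**Figure D1:**
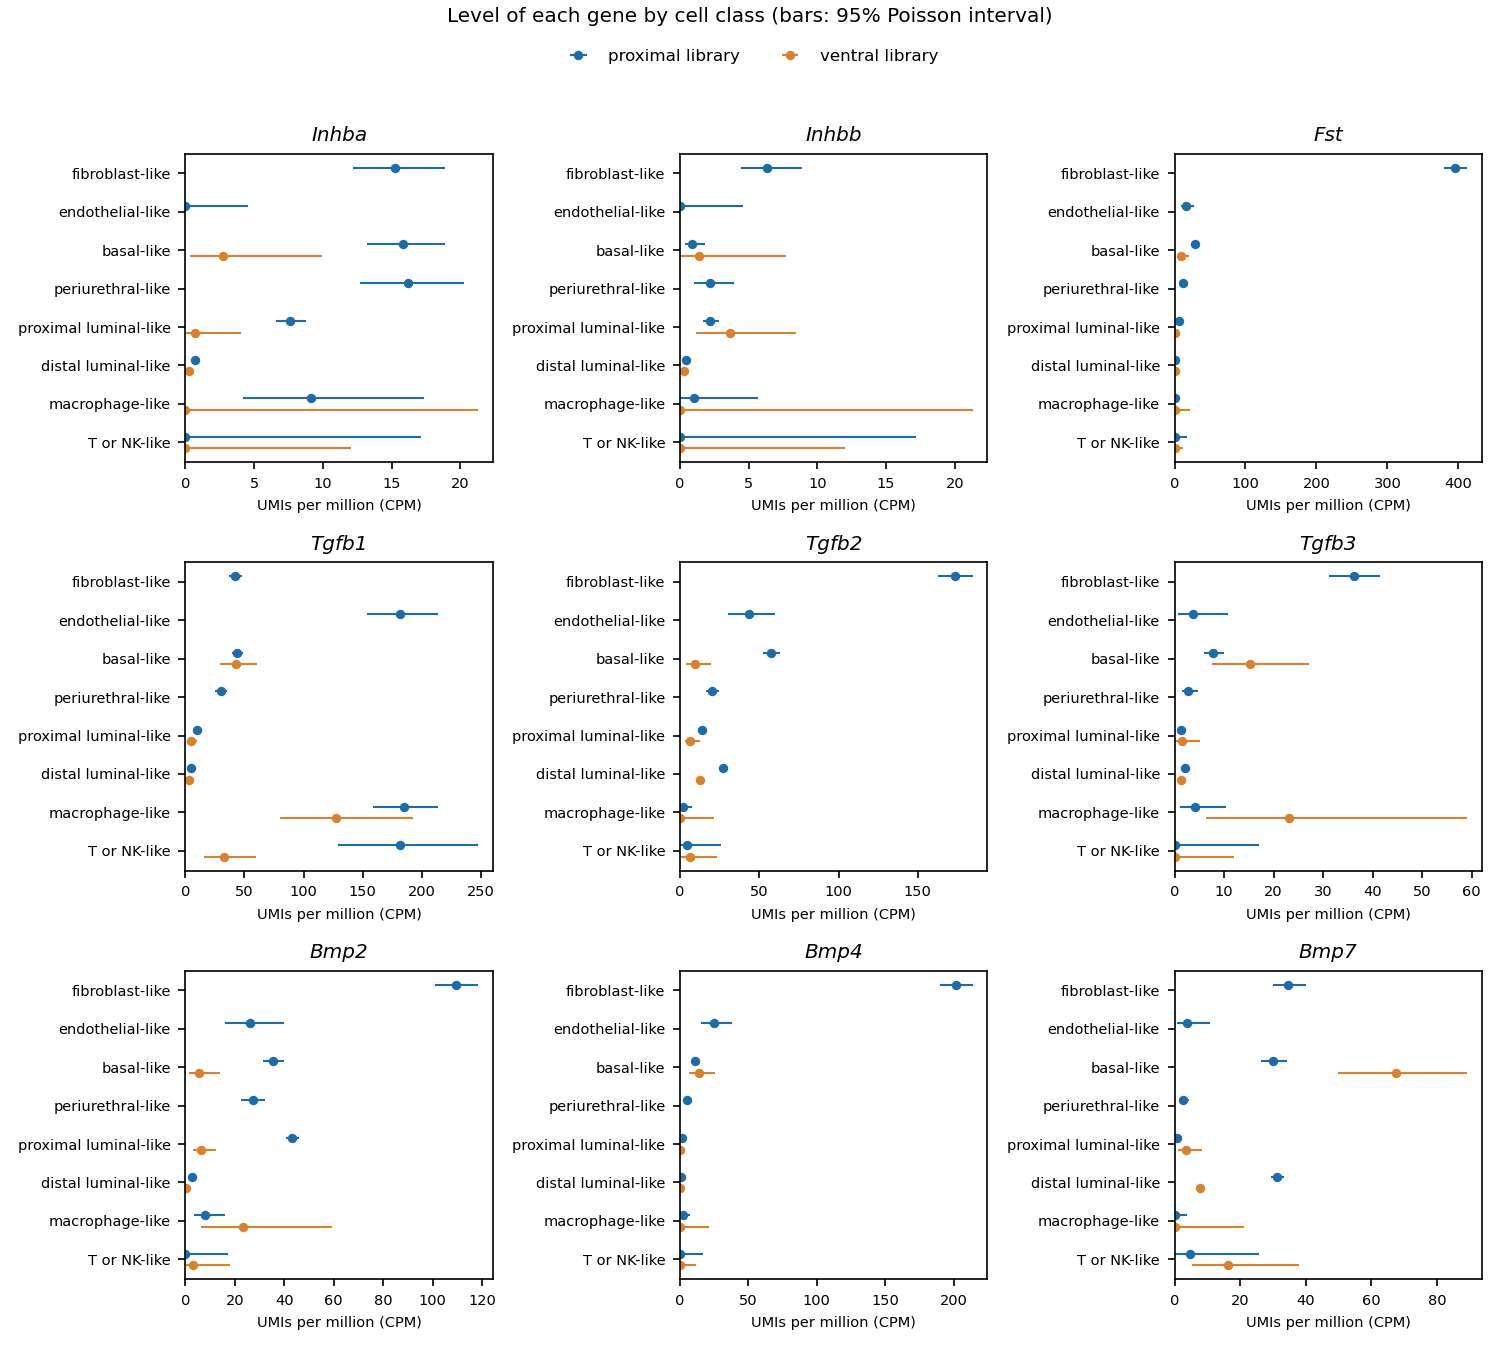
Level of each of the 9 genes in 8 cell classes, on the x axis in CPM (linear, from 0), with blue points for the proximal and orange points for the ventral library and bars for exact 95% Poisson intervals. Fst reached 396 CPM and Bmp4 202 CPM in fibroblast-like cells, and Tgfb1 reached 185 CPM in macrophage-like cells, all of the proximal library.

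Inhba encodes the subunit of activin A, and its level was of the same order in 3 classes of the proximal library. It stood at 16.2 CPM (12.7 to 20.3) in periurethral-like cells, 15.9 CPM (13.2 to 18.9) in basal-like cells and 15.3 CPM (12.2 to 18.9) in fibroblast-like cells, whose intervals overlap. Macrophage-like cells had 9.14 CPM (4.18 to 17.4) from 9 UMIs, which overlaps all 3, and proximal luminal-like cells 7.63 CPM (6.61 to 8.76). Distal luminal-like cells had 0.705 CPM, and 61 endothelial-like cells held no Inhba UMI, which allows up to 3.71 CPM. The 27 T or NK-like cells also held none, but their exact interval reaches 17.2 CPM. In the ventral library Inhba gave 13 UMIs in 10 of 1988 cells, of which 10 UMIs were in distal luminal-like cells at 0.255 CPM. The gene was close to the detection limit there.

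Basal-like cells of the proximal library were not alike in Inhba. The cluster led by Krt14, a basal keratin, had 23.6 CPM (19.2 to 28.6), and the cluster led by Scpep1 had 6.84 CPM (4.42 to 10.1), a ratio of 3.45 (2.21 to 5.58). At a clustering resolution of 2, with the clusters drawn anew, this pair differed by only 0.42 on the log2(CPM + 1) scale. Proximal luminal-like clusters were at 10.3 CPM (Arl14-led), 3.93 CPM (Clca1-led) and 2.82 CPM (Prol1-led).

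Inhbb, the subunit of activin B, was scarce, with 143 UMIs in the proximal library and 20 in the ventral library. Its level was 6.36 CPM (4.43 to 8.84) in fibroblast-like cells, 2.21 CPM (1.68 to 2.86) in proximal luminal-like cells and 2.16 CPM (1.03 to 3.96) in periurethral-like cells. Basal-like cells had 0.881 CPM and distal luminal-like cells 0.440 CPM, and endothelial-like cells held none. In the ventral library the highest level was 3.61 CPM (1.17 to 8.42) in proximal luminal-like cells, from 5 UMIs in 5 cells, all in the Wfdc2-led cluster.

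Fst was concentrated in the stroma. Follistatin binds activin and some BMPs and keeps them from their receptors. Fibroblast-like cells held 2178 of 2685 proximal Fst UMIs (81.1%), a level of 396 CPM (379 to 413). An Fst UMI was found in 54.9% of fibroblast-like cells, and in 31.8% (27.7 to 36.2, exact Clopper-Pearson interval) once each cell was thinned to 2000 UMIs. No macrophage-like cell held one, in 79 cells at full depth or in the 76 that could be thinned. The medians of both classes were 10293 and 11922 UMIs per cell. The 79 macrophage-like cells allow up to 3.05 CPM, a level at least 130-fold lower than in fibroblast-like cells. Such bounds set the measured level against 3 UMIs in the group that held none, and leave out the counting error of the measured level.

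Epithelial Fst came next and was uneven. Basal-like cells had 29.0 CPM (25.3 to 33.0), almost all from the Krt14-led cluster at 50.2 CPM (43.7 to 57.3). The Scpep1-led cluster had 4.10 CPM (2.30 to 6.77), a ratio of 12.2 (7.25 to 22.2). One basal-like cell held 52 of the 230 UMIs. Periurethral-like cells had 11.4 CPM, but 46 of their 53 UMIs came from 1 cell. Endothelial-like cells had 16.1 CPM from 13 UMIs in 2 cells. Proximal luminal-like cells had 6.52 CPM (5.58 to 7.58), with 9.81 CPM in the Arl14-led and 1.79 CPM in the Clca1-led cluster, and distal luminal-like cells had 0.529 CPM. A few strongly positive cells therefore set part of the epithelial values, while the fibroblast-like UMIs were spread over 287 cells.

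Ventral Fst amounted to 8 UMIs, 7 of them in basal-like cells (9.65 CPM, 3.88 to 19.9). Only 10 of the 141 ventral basal-like cells held a UMI of a fibroblast marker other than Dcn, and these 10 cells held 5 of the 7 Fst UMIs. The other 131 cells had 2 Fst UMIs (2.93 CPM). The summed level of the 8 fibroblast markers in the ventral basal-like cluster was 5345 CPM, mostly Dcn, with 1 of the 8 markers found in over 25% of cells and none at 0. In the proximal library the 633 basal-like cells without such a UMI had 30.3 CPM of Fst, and the 45 with one had 10.7 CPM.

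Tgfb1, the broadly expressed and immune-regulating TGF-beta ligand, was highest outside the epithelium. Its proximal levels were 185 CPM (159 to 214) in macrophage-like, 182 CPM (154 to 214) in endothelial-like and 181 CPM (129 to 248) in T or NK-like cells, whose intervals overlap. Basal-like cells had 44.1 CPM (39.6 to 48.9), fibroblast-like cells 42.2 CPM (36.9 to 47.9) and periurethral-like cells 29.7 CPM (25 to 35.1). Luminal levels were lower: proximal luminal-like cells had 9.73 CPM (8.57 to 11) and distal ones 4.38 CPM (3.70 to 5.14). Ventral macrophage-like cells had 127 CPM (79.6 to 192) of Tgfb1 and ventral basal-like cells 42.7 CPM (29 to 60.7). The ventral luminal classes were at 4.33 CPM (1.59 to 9.43, proximal) and 2.81 CPM (2.31 to 3.39, distal). In both libraries the luminal-like classes thus had less Tgfb1 than the macrophage-like and basal-like cells, and the ventral luminal intervals overlap. After thinning, 27.6% of proximal-library macrophage-like cells held a Tgfb1 UMI and 0.298% of distal luminal-like cells, at median depths of 11922 and 48834.5 UMIs. Ventral T or NK-like cells were lower, at 32.6 CPM (15.6 to 60.0) in 24 cells. In those 24 cells a median of 27.4% of UMIs came from Sbp and Spink1, secretory genes of ventral luminal cells, and the part of this in the lower value was not tested.

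Tgfb2, the second TGF-beta ligand, was at 173 CPM (163 to 185) in fibroblast-like cells and 57.7 CPM (52.5 to 63.2) in basal-like cells of the proximal library. Endothelial-like cells had 43.3 CPM (30.2 to 60.2), distal luminal-like cells 27.0 CPM (25.2 to 28.8), periurethral-like cells 20.3 CPM and proximal luminal-like cells 13.9 CPM (12.5 to 15.4). After thinning, 18.9% of fibroblast-like, 9.70% of basal-like and 1.32% of macrophage-like cells held a Tgfb2 UMI. Within the distal luminal-like cells Tgfb2 ranged from 14.4 CPM (12.1 to 16.9) in the Sbp-led cluster to 48.9 CPM (44.6 to 53.4) in the Ren1-led cluster. Within basal-like cells it was 79.1 CPM in the Krt14-led and 32.5 CPM in the Scpep1-led cluster, a ratio of 2.43 (1.97 to 3.02). In the ventral library Tgfb2 was at 12.6 CPM (11.5 to 13.8) in distal luminal-like cells, 12.5 CPM in the unnamed cluster and 9.65 CPM in basal-like cells, the last from 7 UMIs, with overlapping intervals.

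Tgfb3, the third TGF-beta ligand, followed a stromal pattern. Fibroblast-like cells had 36.2 CPM (31.3 to 41.5) and held 48.4% of the 411 proximal UMIs. Basal-like cells had 7.81 CPM (5.99 to 10.0), and the remaining proximal classes 4.06 CPM or less. Ventral basal-like cells had 15.2 CPM (7.57 to 27.1) from 11 UMIs and ventral macrophage-like cells 23.1 CPM (6.30 to 59.2) from 4 UMIs, so that their order is not resolved. Ventral distal luminal-like cells were at 1.38 CPM (1.04 to 1.80).

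Bmp2 had both a stromal and an epithelial source in the proximal library. Its level was 109 CPM (101 to 118) in fibroblast-like cells, 43.2 CPM (40.7 to 45.8) in proximal luminal-like cells and 35.5 CPM (31.5 to 39.9) in basal-like cells. Periurethral-like cells had 27.2 CPM (22.6 to 32.3) and endothelial-like cells 26.0 CPM (16.1 to 39.7). Because proximal luminal-like cells were many and deeply sequenced, they held 43.1% of all Bmp2 UMIs and fibroblast-like cells 22.9%. All 3 proximal luminal-like clusters expressed it, at 60.8 CPM (Clca1-led), 36.7 CPM (Arl14-led) and 21.6 CPM (Prol1-led). Distal luminal-like cells were at 2.61 CPM (2.10 to 3.22). After thinning, a Bmp2 UMI was found in 17.0% of fibroblast-like and 6.61% of proximal luminal-like cells and in none of 76 macrophage-like cells.

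The ventral library held 31 Bmp2 UMIs. The proximal luminal-like cells there had 6.5 CPM (2.97 to 12.3), with 8 of 9 UMIs in the Wfdc2-led cluster (15.4 CPM, 6.65 to 30.4). Distal luminal-like cells had 0.281 CPM (0.140 to 0.503), and the 4 UMIs of macrophage-like cells came from 1 cell. The order of the luminal classes was thus the same in both libraries.

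Bmp4, a mesenchymal BMP that restrains epithelial budding, had the largest share of its proximal UMIs in fibroblast-like cells. These held 1111 of 1334 proximal UMIs (83.3%) at 202 CPM (190 to 214). A Bmp4 UMI was found in 70.2% of fibroblast-like cells, 32.8% (28.7 to 37.2) after thinning, against none of 76 thinned macrophage-like cells. Endothelial-like cells had 24.8 CPM (15.1 to 38.2), basal-like cells 10.7 CPM (8.55 to 13.2) and periurethral-like cells 4.96 CPM (3.14 to 7.44). Proximal luminal-like cells had 1.53 CPM and distal luminal-like cells 0.793 CPM.

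All 10 ventral Bmp4 UMIs lay in basal-like cells, at 13.8 CPM (6.61 to 25.4). Of these, 7 came from the 131 cells without a UMI of the 7 fibroblast markers other than Dcn, a level of 10.3 CPM (4.13 to 21.2). In the proximal library the 633 basal-like cells without such a UMI had 11.4 CPM (9.08 to 14.1). Dcn, which is abundant in stroma, was at 5149 CPM in the former and 1974 CPM in the latter cells, and its part in these levels was not tested. The 1450 ventral distal luminal-like cells held none, which allows up to 0.0766 CPM, at least 10.3-fold lower than the 0.793 CPM of proximal-library distal luminal-like cells.

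Bmp7, a BMP of epithelia and urogenital mesenchyme, had 3 sources of like level. Fibroblast-like cells had 34.7 CPM (30 to 40), distal luminal-like cells 31.3 CPM (29.5 to 33.2) and basal-like cells 30.1 CPM (26.4 to 34.2), with overlapping intervals. Proximal luminal-like cells had 0.687 CPM (0.407 to 1.09), periurethral-like cells 2.59 CPM (1.34 to 4.52), and macrophage-like cells none. Distal luminal-like cells held 69.1% of the 1543 proximal UMIs. Their clusters differed: the Msmb-led cluster had 48.9 CPM (44.8 to 53.2), the Ren1-led 39.9 CPM (36.1 to 44.1), the Prr9-led 32.2 CPM (26.1 to 39.3) and the Sbp-led 3.37 CPM (2.33 to 4.71). Sbp encodes the spermine-binding protein that the ventral lobe secretes. After thinning, a Bmp7 UMI was found in 6.56% of distal luminal-like, 6.72% of basal-like, 6.03% of fibroblast-like and 0.112% of proximal luminal-like cells.

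The ventral library repeated the low level in Sbp-rich cells. Its Msmb-led cluster of 96 cells had 37.2 CPM (30 to 45.5) of Bmp7, and the remaining 1354 distal luminal-like cells 5.79 CPM, a ratio of 6.43 (4.98 to 8.24). Past 2-fold, 6.28% of 10672 genes were higher in the Msmb-led cluster and 3.18% lower. Ventral basal-like cells had the highest level, 67.5 CPM (50 to 89.3), which was the same in the 131 cells without a UMI of the fibroblast markers (67.5 CPM, 49.4 to 90.0).

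**Figure D2:**
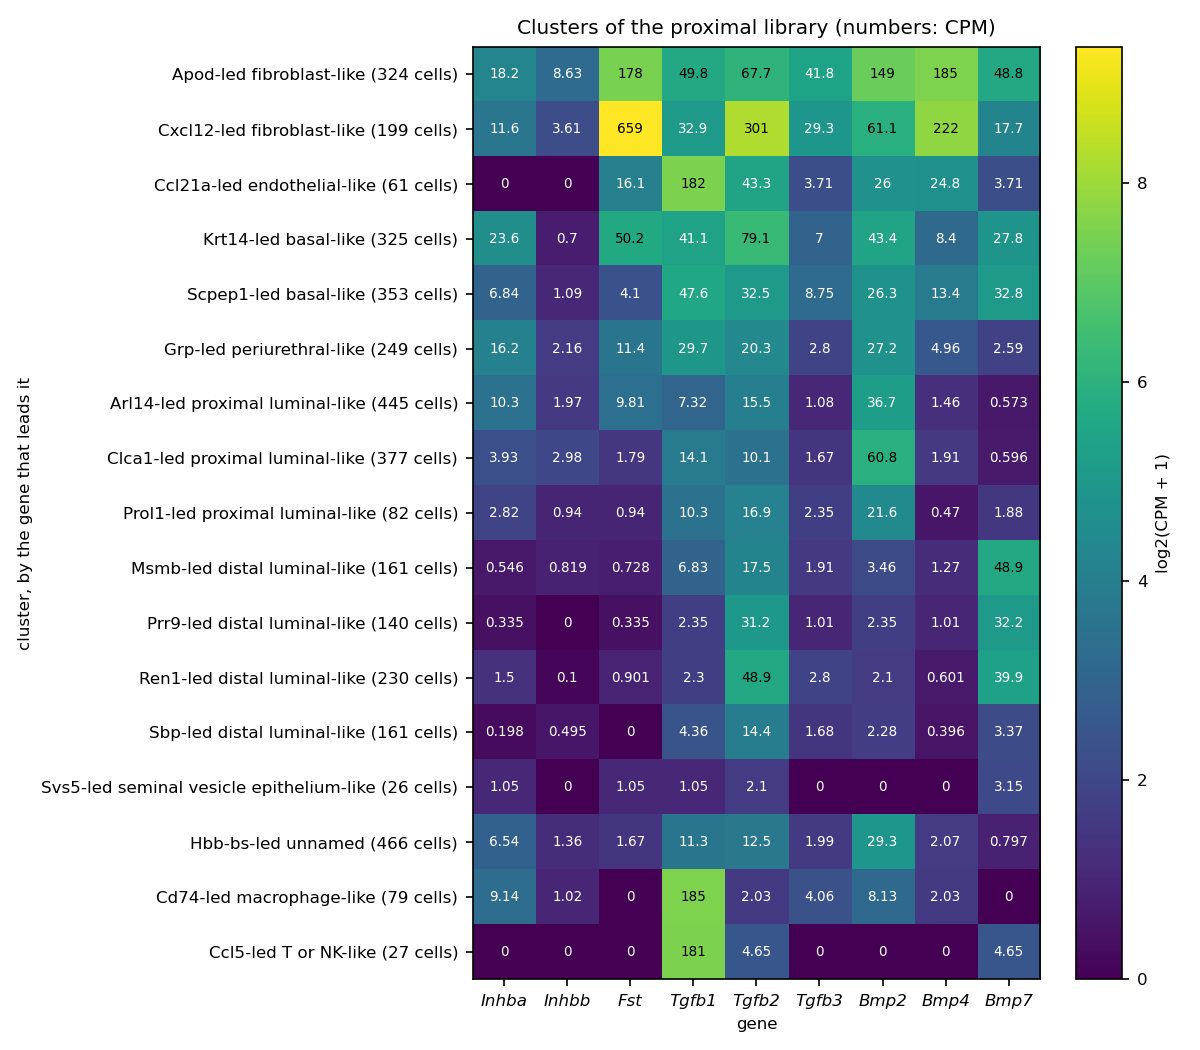
Level of the 9 genes (columns) in the 17 clusters of the proximal library (rows, with the number of cells), printed in CPM and coloured by log2(CPM + 1). Fst and Tgfb2 were highest in the Cxcl12-led fibroblast-like cluster (659 and 301 CPM), Bmp2 and Bmp7 were higher in the Apod-led one, and Bmp7 was at 3.37 CPM in the Sbp-led distal luminal-like cluster against 32.2 to 48.9 CPM in the others.

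Fibroblast-like cells were next set against the 2549 cells of the named epithelial classes of the proximal library, to see which factors were higher in the stroma. The 466 cells of the unnamed cluster, which held all 8 proximal luminal markers in over 25% of cells, were left out. A gene was called where log2(CPM + 1) differed by at least 1, that is 2-fold, with at least 50 UMIs over both groups. By this rule 8 of the 9 genes were higher in fibroblast-like cells and none lower, beside 20.2% of 15615 genes higher and 12.3% lower. The median log2 ratio of the 9 genes was 2.26, and that of all genes tested 0.11. Ratios were 85.1 (72.5 to 100) for Bmp4, 61.7 (55.9 to 68.3) for Fst, 14.8 (12.1 to 18.2) for Tgfb3, 6.96 (6.43 to 7.53) for Tgfb2, 5.21 (3.42 to 7.79) for Inhbb and 4.96 (4.51 to 5.44) for Bmp2. Tgfb1 was 3.48 times (3 to 4.03) and Inhba 2.64 times (2.07 to 3.35) as high, and Bmp7, at 1.91 times (1.64 to 2.23), was not called. Inhba fell short of the rule, at 0.69 on the log2 scale, when each cell was given the same weight. With a 4-fold rule, 5 genes were called.

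**Figure D3:**
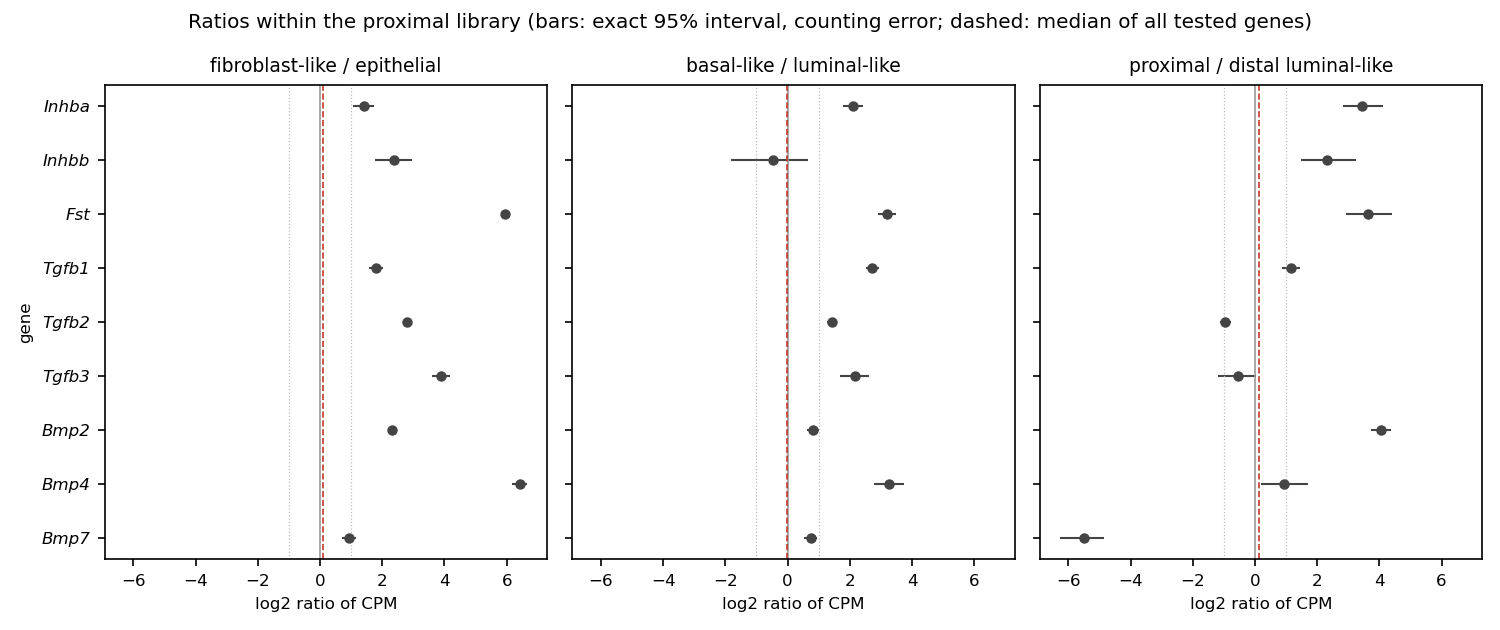
Log2 ratio of CPM for the 9 genes (rows) in 3 comparisons within the proximal library, with exact 95% intervals for counting error as bars, dotted lines at 2-fold and a dashed line at the median of all genes tested. Bmp4 and Fst lie farthest to the right in fibroblast-like over epithelial cells (85.1 and 61.7 times), and Bmp7 lies far to the left in proximal over distal luminal-like cells (45.6 times lower) where Bmp2 lies to the right (16.5 times higher).

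Basal-like cells were compared with luminal-like cells in each library. In the proximal library 6 of 9 genes were higher in basal-like cells and none lower, beside 14.3% of 14694 genes higher and 14% lower. The ratio was 9.63 (6.91 to 13.5) for Bmp4, 9.23 (7.58 to 11.3) for Fst, 6.57 (5.68 to 7.60) for Tgfb1, 4.48 (3.22 to 6.19) for Tgfb3, 4.27 (3.40 to 5.33) for Inhba and 2.71 (2.43 to 3.02) for Tgfb2. Bmp2 at 1.75 (1.53 to 2), Bmp7 at 1.67 (1.45 to 1.93) and Inhbb at 0.728 (0.283 to 1.58) were not called. Median log2 ratios were 1.68 for the 9 genes and -0.01 for all genes. Cells thinned to 2000 UMIs, a pseudocount of 10 CPM or a 4-fold rule each left 3 genes called.

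In the ventral library only 4 of the 9 genes reached 50 UMIs. Tgfb1 was 14.9 times (9.70 to 22.4), Tgfb3 11.0 times (5.18 to 21.2) and Bmp7 8.83 times (6.39 to 12.0) as high in basal-like as in luminal-like cells, while Tgfb2 was at 0.779 (0.312 to 1.62). Thus 3 of 4 were higher, beside 33.6% of 11047 genes higher and 13.5% lower. Bmp4, below the UMI minimum, was at least 186-fold higher against 3 UMIs in luminal-like cells, which held none, and the exact interval of the ratio began at 125. The median gene was itself shifted by 0.56 on the log2 scale, and 48.3% of the UMIs of the median ventral distal luminal-like cell came from Sbp and Spink1. With ratios centred on that median the same 3 genes were called, while the higher genes' share of all genes called went from 71.3% to 43.4%. No gene was called after thinning to 2000 UMIs, which left few UMIs.

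The 2 luminal classes were compared next. In the proximal library Bmp2 was 16.5 times (13.3 to 20.7), Fst 12.3 times (7.58 to 21.3), Inhba 10.8 times (7.07 to 17.3) and Inhbb 5.02 times (2.81 to 9.54) as high in proximal as in distal luminal-like cells. Bmp7 was 45.6 times (28.7 to 77.2) lower. These were 4 genes higher and 1 lower of 9, beside 20.8% higher and 13.2% lower of 14079 genes. Tgfb2 was 1.94 times (1.71 to 2.19) lower and Tgfb1 2.22 times (1.81 to 2.74) higher on plain CPM, both just short of the rule. Tgfb3 had a ratio of 0.678 (0.440 to 1.03) and Bmp4 of 1.92 (1.15 to 3.26). After thinning, the Fst difference dropped to 0.89 on the log2 scale and 2 genes were called in all. At resolution 2, Inhbb stood at 0.99.

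In the ventral library none of the 4 genes with 50 UMIs was called between the luminal classes, beside 31% of 10859 genes higher and 2.6% lower. The median gene was shifted by 0.69 on the log2 scale towards proximal luminal-like cells, and centring on it gave 2 calls, both lower (Bmp7 and Tgfb2). The higher genes' share of all calls then went from 92.3% to 50.4%. Bmp7 was at 3.61 CPM in proximal and 7.79 CPM in distal luminal-like cells, a ratio of 0.463 (0.149 to 1.09). All 5 of these proximal luminal-like UMIs lay in the Saa1-led cluster of 49 cells and none in the Wfdc2-led cluster of 43. The Saa1-led cells held far more UMIs of distal than of proximal luminal markers, so the class mixes unlike cells. In 33 of the 92 cells Sbp and Spink1 made up more than 5% of UMIs. The Bmp7 difference passed the rule without those cells, and at resolution 2 it reached -3.17 on the log2 scale.

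Periurethral-like cells, a Grp-led cluster that also had Krt5 among its leading genes, were compared with basal-like cells after the data had been seen. All 7 basal markers were found in over 25% of its cells, at a summed 8228 CPM beside 8375 CPM in the Krt14-led and 5757 CPM in the Scpep1-led basal-like cluster. At resolution 2 the class shrank from 249 to 76 cells while basal-like cells went from 678 to 853. None of 8 genes was higher and 4 were lower, beside 7.07% higher and 12.1% lower of 10451 genes. Bmp7 was 11.6 times (6.54 to 22.8), Tgfb2 2.85 times (2.28 to 3.59), Tgfb3 2.79 times (1.52 to 5.52) and Fst 2.54 times (1.87 to 3.49) lower. Inhba was level, with a ratio of 1.02 (0.755 to 1.37), and Bmp2 was at 0.765 (0.615 to 0.947). The Fst difference was -0.93 on the log2 scale, short of the rule, with cells of at most 5% mitochondrial UMIs, and 46 of the 53 periurethral-like Fst UMIs lay in 1 cell.

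Endothelial-like and macrophage-like cells differed from fibroblast-like cells in nearly every factor. Tgfb1 was 4.32 times (3.49 to 5.33) as high in endothelial-like and 4.39 times (3.59 to 5.35) as high in macrophage-like cells. The endothelial-like cells were lower in the other 7 genes tested (22.2% of 9709 genes were lower and 12% higher), among them Inhba, at least 4.11-fold. The macrophage-like cells were lower in 6 of 8 (35.7% of 9874 genes lower, 14.8% higher), with Inhba at 0.599 (0.265 to 1.19) not called. Both comparisons share the fibroblast-like cells. Inhba in endothelial-like cells, and Fst and Bmp7 in macrophage-like cells, held no UMI. They reached the UMI minimum through the fibroblast-like cells alone, so the numbers of genes called lower are descriptions.

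The stroma itself was not uniform. Of the 8 fibroblast markers, 8 were found in over 25% of cells of the Cxcl12-led cluster and 7 in the Apod-led one, and their smooth muscle markers summed to 428 and 735 CPM. The Cxcl12-led cluster of 199 cells had 659 CPM (628 to 692) of Fst and 301 CPM (280 to 324) of Tgfb2, and the Apod-led cluster of 324 cells 178 CPM (163 to 194) and 67.7 CPM (58.7 to 77.6). Ratios were 3.70 (3.35 to 4.09) for Fst and 4.45 (3.81 to 5.22) for Tgfb2. The reverse held for Bmp2, at 61.1 against 149 CPM, and for Bmp7, at 17.7 against 48.8 CPM. Bmp4 was nearly level, at 222 and 185 CPM. Of 8 genes, 2 were higher and 2 lower past 2-fold, beside 4.71% and 5.07% of 9124 genes.

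These 2 clusters depend on the settings. With cells of at most 5% mitochondrial UMIs the pair so named had log2 differences of 0.62 for Bmp2 and 1.65 for Bmp7, and at resolution 2 of -1.04 for Fst, -1.73 for Tgfb2, 0.65 for Bmp2 and 4.01 for Bmp7, all of the opposite sign. At resolution 2 the stroma fell into 4 clusters. Of those named fibroblast-like, the one with most Apod was then a set of 87 cells led by Inmt, all from the Apod-led cluster. The one with most Cxcl12 was led by Wif1, with 101 of its 162 cells from the Apod-led and 61 from the Cxcl12-led cluster. The pair at resolution 2 thus set largely other cells against each other. The levels of these 4 clusters are therefore given in place of the pair.

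An Eln-led cluster of 140 cells, 138 of them from the Cxcl12-led cluster, had the highest Fst, 829 CPM (787 to 872), and Tgfb2, 382 CPM (354 to 412). Fst is among the 10 genes that led this cluster, although it took no part in the clustering, so its level there is a description. The Inmt-led cluster came next, with 318 CPM of Fst and 171 CPM of Tgfb2, and had the lowest Bmp7 (2 UMIs, 2.43 CPM) and 29.1 CPM (18.6 to 43.3) of Inhba, an interval that overlaps the 16.3 CPM (10.9 to 23.4) of the Eln-led cluster. A Wif1-led cluster of 162 cells, drawn from both, had 154 CPM of Fst and 50.8 CPM of Tgfb2 with 251 CPM (229 to 275) of Bmp4 and 54.1 CPM (44.0 to 65.8) of Bmp7. Wif1 encodes a secreted Wnt inhibitor, and these cells also held 25 of the Inhbb UMIs (13.5 CPM). The fourth, led by Cxcl14 and left unnamed because smooth muscle genes were among its leading genes (Acta2 578 CPM, Tagln 575 CPM), had 150 CPM of Fst, 38.0 CPM of Tgfb2, 173 CPM (149 to 200) of Bmp2, 223 CPM of Bmp4 and 59.9 CPM of Bmp7. Fst and Tgfb2 were thus both highest in the Eln-led and next highest in the Inmt-led cluster, and their intervals overlap between the other 2 clusters, while Bmp4 and Bmp7 were both higher in the Wif1-led and Cxcl14-led than in the Eln-led and Inmt-led cells. Tgfb1 (40.5 to 43.8 CPM) and Tgfb3 (31.5 to 42.2 CPM) differed little, with overlapping intervals.

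**Figure D4:**
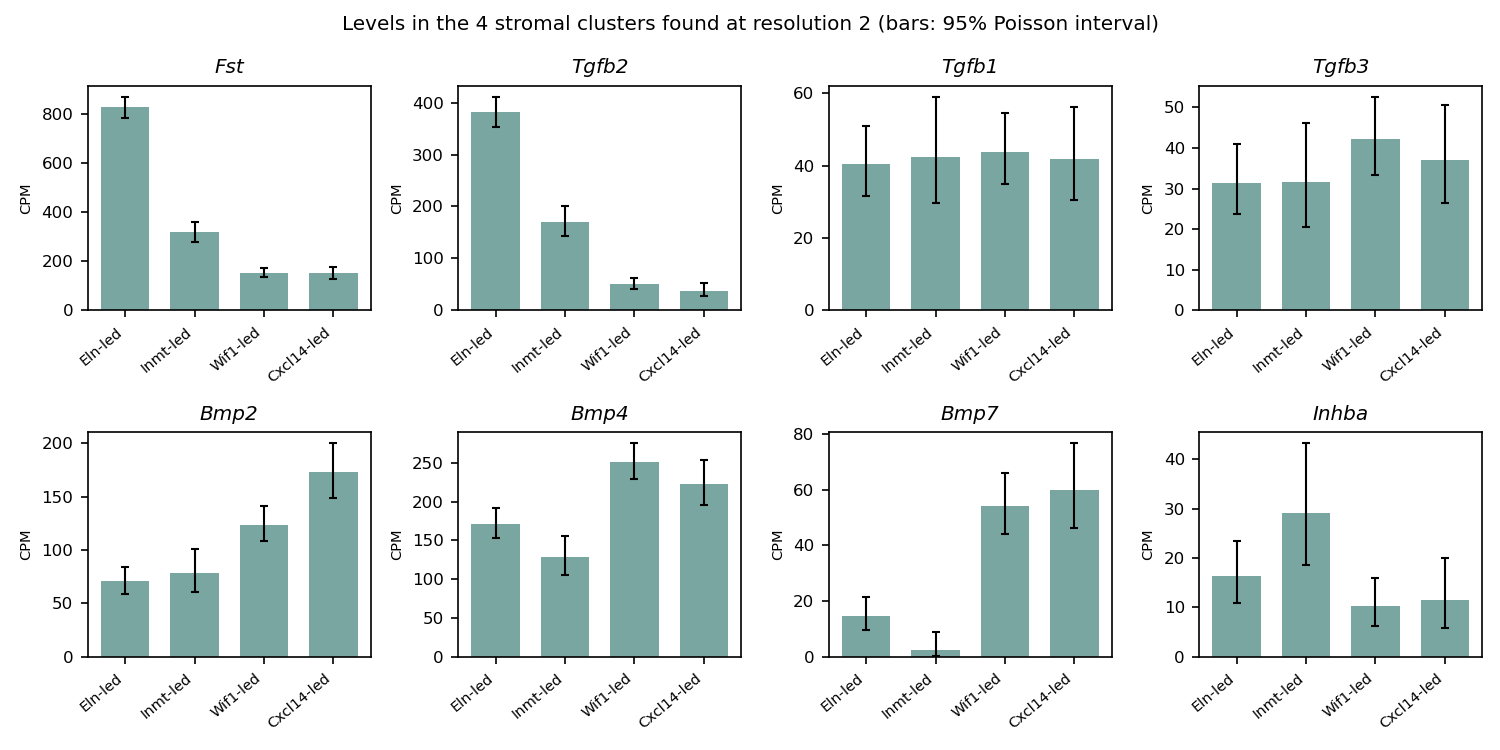
Level in CPM (bars from 0, with exact 95% Poisson intervals) of 8 of the genes in the 4 stromal clusters of the proximal library at resolution 2, named by their leading gene. Fst and Tgfb2 are highest in the Eln-led (829 and 382 CPM) and low in the Wif1-led and Cxcl14-led clusters, Bmp2 is highest in the Cxcl14-led cluster, Bmp7 is higher in the Wif1-led and Cxcl14-led than in the other 2 clusters, and the intervals of Tgfb1 overlap.

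Detection of Fst in single fibroblast-like cells was counted over all of them together, so it includes the differences between these clusters and is a description. Among cells thinned to 2000 UMIs, an Fst UMI was found in 50 of 91 with a Tgfb2 UMI (54.9%, 44.2 to 65.4) and in 103 of 390 without one (26.4%, 22.1 to 31.1). For Bmp4 the shares were 34.8% (27.4 to 42.8) of 158 with and 30.3% (25.4 to 35.7) of 323 without. For Inhba, whose product follistatin binds, they were 40.0% (16.3 to 67.7) of 15 and 31.5% (27.3 to 36.0) of 466. In basal-like cells none of 65 with a Tgfb2 UMI (up to 5.52%) and 15 of 605 without one (2.48%, 1.39 to 4.06) held Fst, and the intervals overlap.

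The Krt14-led and Scpep1-led basal-like clusters were compared in the same way. Of 8 genes, Fst, Inhba and Tgfb2 were higher in the Krt14-led cluster and none lower, beside 4.21% and 7.33% of 9211 genes. Tgfb1, Bmp7 and Tgfb3 had ratios of 0.863 (0.696 to 1.07), 0.846 (0.651 to 1.10) and 0.8 (0.470 to 1.36). Tgfb2 was short of the rule with at least 1000 genes per cell (0.87 on the log2 scale) or at most 5% mitochondrial UMIs (0.90). In proximal luminal-like cells, Inhba was 2.61 times (1.78 to 3.91) and Fst 5.48 times (3.22 to 10.0) lower in the Clca1-led than in the Arl14-led cluster. These were 2 of 6 genes, beside 2.64% lower and 5.43% higher of 11660 genes. Both differences were short of the rule with at most 5% mitochondrial UMIs, at -0.48 for Inhba and -0.41 for Fst on the log2 scale, and with the top doublet scores removed, where Fst was at -0.36 and Inhba at -0.89. Inhba was also short of it with the mean of single-cell CPM, at most 20% mitochondrial UMIs or another random seed.

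Among distal luminal-like clusters of the proximal library, Bmp7 was 14.5 times (10.3 to 21.2) as high in the Msmb-led as in the Sbp-led cluster and was the single gene called of 4, beside 21.4% higher and 2.48% lower of 10993 genes. In the Ren1-led cluster Bmp7 was 11.9 times (8.35 to 17.4) and Tgfb2 3.40 times (2.82 to 4.12) as high as in the Sbp-led cluster, 2 of 3 genes, beside 37.2% higher and 4.62% lower of 10781 genes. The median gene was shifted by 0.80 on the log2 scale there, and the centred Tgfb2 difference was 0.89. Both pairs share the Sbp-led cells.

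The libraries were compared within 3 epithelial classes, and kit version differs along with region in all of them. In distal luminal-like cells Bmp2 was 9.30 times (4.95 to 19.3), Bmp7 4.02 times (3.53 to 4.58) and Tgfb2 2.14 times (1.92 to 2.39) as high in the proximal library, 3 of 5 genes, beside 32.7% higher and 1.22% lower of 13149 genes. The median of all genes was itself 0.71 higher on the log2 scale, and centring on it left only Bmp7 called, with the higher genes' share of all calls going from 96.4% to 58.3%. Bmp2 was also short of the rule after subtraction of free RNA or thinning. Its ventral UMIs were below the UMI minimum, which it reached through the proximal library. Its call, and the count of 3 genes that includes it, are therefore descriptions. The mix of clusters differed too, since the class was made up of 8 ventral and 4 proximal-library clusters. Sbp and Spink1 made up more than 5% of UMIs in 1398 of 1450 ventral and 155 of 692 proximal-library cells. Bmp7 was at 3.37 CPM in the proximal-library Sbp-led cluster, lower than in the ventral cells outside the Msmb-led cluster. In the Msmb-led clusters it was at 48.9 CPM (proximal library) and 37.2 CPM (ventral). The part of this mix in the Bmp7 difference was not tested.

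In proximal luminal-like cells Bmp2 was 6.65 times (3.49 to 14.6) and Inhba 10.6 times (1.88 to 420, from 1 ventral UMI) as high in the proximal library. Fst was at least 3.01-fold higher, with no ventral UMI, and Tgfb1 2.25 times (1.02 to 6.18). All 6 genes tested reached 50 UMIs through the proximal library, with 0 to 9 ventral UMIs each, so the 4 called are a description, beside 26.8% higher and 12.8% lower of 12101 genes. Centring on a median of 0.22 left 3 calls, without Tgfb1, and moved the higher genes' share of all calls from 67.7% to 55.6%. After thinning 1 gene was called. The 92 ventral cells were not alike: 49 formed a Saa1-led cluster with distal luminal markers summing to 298218 CPM and proximal luminal markers to 793 CPM, beside 14601 and 8492 CPM in the 43 Wfdc2-led cells. The Wfdc2-led cells alone had 15.4 CPM of Bmp2 (6.65 to 30.4), still apart from the 43.2 CPM (40.7 to 45.8) of the proximal library.

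Basal-like cells of the proximal library had more Bmp2 (6.44 times, 2.49 to 23.8), Tgfb2 (5.98 times, 2.88 to 14.9), Inhba (5.75 times, 1.56 to 48.0) and Fst (3 times, 1.43 to 7.55), and less Bmp7, 2.24 times (1.62 to 3.06). All 8 genes tested reached 50 UMIs through the proximal library, with 2 to 49 ventral UMIs each, so the 4 called higher and 1 lower are a description, beside 30.7% and 14% of 9535 genes. Tgfb1 was level at 1.03 (0.713 to 1.54), and Bmp4 was at 0.776 (0.402 to 1.68). Centred on a median of 0.24, Tgfb3 was called lower as well, and the higher genes' share of all calls went from 68.7% to 55.3%. After thinning, Inhba (0.37), Fst (0.58) and Bmp7 (-0.63) were short of the rule on the log2 scale. Ventral basal-like cells held a median of 4933 UMIs and proximal ones 11131.5. In cells without a UMI of the 7 fibroblast markers other than Dcn, Fst was at 30.3 CPM (26.5 to 34.6) in the proximal and 2.93 CPM (0.355 to 10.6, from 2 UMIs) in the ventral library.

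The rest of the pathway was followed through 68 listed genes. In fibroblast-like over epithelial cells 32 of the 60 tested were higher and 4 lower, beside the 20.2% of all genes higher and 12.3% lower. All 8 tested of 11 antagonists were higher, among them Fstl1, a follistatin-like protein (205 against 2.09 CPM), Nbl1, a BMP antagonist (859 against 20.5 CPM), Chrd, chordin (22.9 against 0.474 CPM), and Sostdc1 (22.0 against 0.136 CPM). Of 9 other ligands tested 6 were higher and none lower, with Gdf10 at 188 against 0.244 CPM.

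Latency and processing genes were split between the compartments. Of 11, 6 were higher in fibroblast-like cells, beside 20.2% of all genes, led by the latent TGF-beta binding protein Ltbp4 (913 against 40.1 CPM), the TGF-beta anchor Lrrc32 (13.8 against 0.190 CPM), the protease Bmp1 and Ltbp1. Another 3, all activators, were lower, beside 12.3% of all genes: Thbs1 (thrombospondin 1) 4.28 times (4.05 to 4.52), Itgb8 2.32 times (1.69 to 3.28) and Itgb6 2.16 times (1.81 to 2.60). Between the luminal classes 6 of the 10 tested were higher in proximal luminal-like cells and none lower, beside 20.8% and 13.2% of all genes. All 3 activators were among them, and Thbs1 was at 2316 CPM against 87.1 CPM in distal luminal-like cells, a ratio of 26.6 (25.6 to 27.6), and Ltbp1, Itgb6 and Itgb8 were 33.6, 18.6 and 16.4 times as high. The highest Itgb8 level was in macrophage-like cells, at 233 CPM (203 to 265), and the highest Lrrc32 level in endothelial-like cells, at 153 CPM (128 to 183).

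Receptors bind the ligands and Smads carry the signal. In fibroblast-like over epithelial cells 5 of 13 receptors were higher, beside 20.2% of all genes, among them Acvrl1 (7.37 times), the co-receptor Tgfbr3 (5.20 times) and Tgfbr1 (3 times). The BMP receptor Bmpr1b was 23.0 times (19.3 to 27.8) lower, at 22.0 against 506 CPM, and it was highest in luminal cells, with 803 CPM in distal and 340 CPM in proximal luminal-like cells of the proximal library. Of 8 Smads, beside the same 20.2%, 3 were higher (Smad3 4.51 times, and the inhibitory Smad6 and Smad7) and none lower. In proximal over distal luminal-like cells 4 of 13 receptors were higher and 2 lower, and 1 of 8 Smads higher and 1 lower, beside 20.8% and 13.2% of all genes. Tgfbr2 was 6.51 times (5.83 to 7.27) as high and Smad2 2.79 times, while Smad9, which carries BMP signals, was 41.3 times (13.9 to 202) lower from 3 UMIs in proximal luminal-like cells.

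Among 11 common targets, 4 were higher in fibroblast-like cells and none lower, beside 20.2% and 12.3% of all genes, among them Tgfbi (21.7 times), Id3 (3.64 times) and Bambi (2.86 times). Between luminal classes of the proximal library 3 of the 10 tested were higher in proximal luminal-like cells and 1 lower, beside 20.8% and 13.2% of all genes. Ccn2 was 24.3 times (21.4 to 27.7) higher in proximal luminal-like cells and the BMP target Id3 3.04 times (2.92 to 3.17) lower. The related Id1 (185 against 174 CPM), Id2 (152 against 147 CPM) and Id4 (50.4 against 27.8 CPM) were not lower there. Between basal-like and luminal-like cells of the proximal library, 4 of 10 targets were higher and none lower, beside 14.3% and 14% of all genes. Basal-like cells there had 8.00 times (7.34 to 8.71) as much Bambi, a decoy receptor, as luminal-like cells. In the ventral library Bambi was at 82.7 CPM in basal-like, 45.5 CPM in proximal luminal-like and 22.6 CPM in distal luminal-like cells. In distal luminal-like cells the library difference was large for Id1 (174 against 0.818 CPM) and Id3 (338 against 6.21 CPM), higher in the proximal library, where 28 of 46 listed genes tested were higher and none lower on the shifted scale described above, beside 32.7% and 1.22% of all genes.

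Each of the 8 genes with at least 200 proximal UMIs was set against 11750 genes over the 17 clusters, which share a library and differ in depth. By Pearson correlation of log2(CPM + 10), given as a description, Fst was most like Nhs (0.988), Cacna1c and Evx2, Bmp4 most like Nid1 (0.989), Bnc2 and Ankrd29, and Tgfb3 most like Myl9 (0.979), Scarf2 and Islr. Tgfb2 was most like Tgfbr3 (0.908), Csrp2 and Ro60, and Tgfb1 most like Rasa3 (0.961), Ncoa3 and Msn. Bmp2 was most like Cebpd (0.930), Nppc and Tlcd2, Inhba most like Rnf217 (0.887), Cebpa and Lhfp, and Bmp7 most like Mt2 (0.885), Arxes2 and Tbc1d8b. Fst, Bmp4 and Tgfb3 were highest in the 2 fibroblast-like clusters, and the part of these clusters in the correlations was not tested.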

How the data were processed

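Single-cell RNA was measured in 2 libraries of mouse prostate. The authors deposited raw UMI counts per gene and cell barcode, made with Cell Ranger 7.0.0 on mm10, per the submitters' processing notes. The ventral file held 2221 barcodes (49356586 UMIs, median 24403 per barcode) and the proximal file 4344 (97817603 UMIs, median 13792.5). Cells were kept with at least 500 genes and at most 10% mitochondrial UMIs. Scrublet in scanpy 1.11.5 called 11 of 5704 cells doublets (0.193%), too few to count as working, so doublets remain.

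Each library was clustered on 2000 variable genes, 30 components and 15 neighbours at resolution 1. The 9 genes and 68 pathway genes were kept out of the variable genes. Clusters were named from marker lists of 22 cell classes, by a score set after the clusters had been looked at. The names are rebuilt here and may differ from the study's. Counts were summed per class. Ratios carry exact conditional 95% intervals and shares exact Clopper-Pearson intervals, for counting error only. With 1 library per group no test was made. Genes were called at 2-fold on log2(CPM + 1) with at least 50 UMIs. Since these UMIs can come from a single group, the numbers of genes called are descriptions. Pathway genes were named as the up to 4 called genes per list, direction and comparison farthest from no difference. The procedure was tested on simulated counts, where unchanged genes were called most often in the ventral comparison of basal-like with luminal-like cells. Members and lists were chosen with earlier results of these data known. Alternatives covered filters, pseudocount, fold, minimum UMIs, thinning, free RNA, clustering and naming. Cluster pairs, the periurethral, endothelial and macrophage comparisons, centring, resolution-2 stroma and the split of basal-like cells by fibroblast markers were added after seeing the data. Detection of Fst in single cells had been planned with Inhba and Inhbb only, and Tgfb2 and Bmp4 were added. One gene of the target list is not reported here.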

Additional observations from a re-analysis of the deposited data

How the results depend on the processing

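Of 1643 recomputed ratios of single genes, 1517 kept their direction and their side of the 2-fold rule, 33 no longer passed it, 87 newly passed it and 6 changed sign. This tally covers the alternatives of clustering, cell filter, doublets, thinning, centring, averaging, free RNA and the top cell. It leaves out the other pseudocounts, folds and UMI minimums, and does not count genes that fell under the UMI minimum. All 6 belong to the Cxcl12-led over Apod-led pair, whose log2 ratios were 0.62 for Bmp2 and 1.65 for Bmp7 with at most 5% mitochondrial UMIs, and -1.04 for Fst, -1.73 for Tgfb2, 0.65 for Bmp2 and 4.01 for Bmp7 at resolution 2, where other clusters take the pair's names.

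The number of the 9 genes called moved by over 1.5 times as follows. With a pseudocount of 10 CPM it was 3 for basal over luminal in the proximal library (main value 6), 2 for proximal over distal luminal there (5), and 1, 1 and 3 for the library comparisons of distal luminal (3), proximal luminal (4) and basal cells (5). A 4-fold rule gave 5 for fibroblast over epithelial (8), 3 for basal over luminal in the proximal library, and 0 and 3 for the library comparisons of distal luminal and basal cells. With at least 10 UMIs basal over luminal in the ventral library gave 6 (3) and with at least 200 UMIs 1, while proximal over distal luminal in the proximal library gave 3 with at least 200. Thinning to 2000 UMIs gave 3 and 0 for basal over luminal in the proximal and ventral libraries, 2 for proximal over distal luminal in the proximal library, and 1 each for the library comparisons of proximal luminal and basal cells. Centring on the median gene gave 1 for the library comparison of distal luminal cells. Proximal over distal luminal in the ventral library, with 0 calls, was least settled. It gave 1 call with a pseudocount of 0.1 CPM, with the mean of single-cell CPM, after free RNA subtraction, without cells of over 5% Sbp and Spink1, with at most 5% or 20% mitochondrial UMIs, or with top doublet scores removed. It gave 2 with at least 10 UMIs, centring, without the top cell of each gene, with at least 1000 genes per cell or another random seed. It gave 3 at resolution 2 or with pathway genes among the variable genes. The cause of these changes was not tested.

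Few UMIs limit the ventral values of Inhba, Inhbb, Fst, Bmp2 and Bmp4, which gave 8 to 31 UMIs each. No paired analysis was possible because each group is 1 library; no replicate was left out for the same reason.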
